A study of Mus musculus with 4 samples.

Results

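The B lineage transcription factors described here are 10 genes: *Tcf3*, *Ebf1*, *Pax5*, *Spi1*, *Spib*, *Ets1*, *Pou2f2*, *Pou2af1*, *Bach2* and *Ikzf3*. They were taken by name from the 41214 genes of a count table, through their Ensembl identifiers and GENCODE symbols. The list was chosen with earlier results of these data known. All 10 were counted well above the filter of at least 10 counts in at least 2 libraries, which 14554 genes passed, and single values of the factors ran from 1713 counts (*Spi1*) to 87413 counts (*Ets1*). RNA-seq was made on B220+ splenocytes, spleen cells held on magnetic beads by an antibody to the form of CD45 found on B cells, with 2 libraries from MIZ-1WT and 2 from MIZ-1△POZ mice and no stimulation named in the labels. In MIZ-1△POZ mice a floxed part of *Zbtb17*, the gene of the MYC partner MIZ-1, was removed by MB1-Cre, so that B lineage cells made MIZ-1 without the POZ domain through which it forms multimers. MB1-Cre is expressed from the *Cd79a* (mb1) gene, and cells outside the B lineage keep the whole *Zbtb17*. The mice were young adults on a C57BL/6 background. Whether the MIZ-1WT mice also carried MB1-Cre or the floxed allele, and whether a library came from 1 mouse or a pool, is not given in the sources used here. The study calls the libraries biological duplicates, and p-values measure only the spread between these libraries.

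B cells are made in steps that are set by a small group of transcription factors. The E proteins of *Tcf3* (E2A) and the zinc finger factor EBF1 open the early B cell program and turn on PAX5, which keeps B cells committed by activating B cell genes and silencing genes of other lineages. PU.1 (*Spi1*), SPI-B (*Spib*) and ETS1 bind DNA through an ETS domain, and OCT2 (*Pou2f2*) binds the octamer element of immunoglobulin promoters together with its coactivator OCA-B (*Pou2af1*). BACH2 represses *Prdm1*, the gene of the plasma cell regulator BLIMP-1, and Aiolos (*Ikzf3*) is an Ikaros family factor of maturing B cells. In the spleen these factors hold the state of mature follicular and marginal zone B cells, and PAX5, EBF1, BACH2 and ETS1 are taken down when a B cell becomes a plasma cell, in which OCA-B is kept.

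The start regions of the 5 factors with the largest differences between the genotypes are shown first, since the factors are known to act on one another's genes. RefSeq promoter windows (GRCm38.p6, 250 bases before and 50 bases after a start, 300 bases in all) were found for 7 of the 10 factors, with 8 windows. *Spi1*, *Ets1* and *Ikzf3* had none. Each window was searched on both strands for the octamer ATGCAAAT, the PU.1-type ETS element GAGGAA, the E-box CANCTG, the EBF1 palindrome (TCCC and GGGA with any 2 bases between) and the GABP-type ETS element CCGGAAG, which shares the core GGAA with the PU.1-type element. The sequences below run 5′ to 3′ on the strand of the gene and end at the base before the start, except for *Pou2f2*, whose last bases lie in annotated exons and are left off. Capitals mark a match.
Pou2f2 (chr7:25132513-25132610, minus strand, within the annotated gene): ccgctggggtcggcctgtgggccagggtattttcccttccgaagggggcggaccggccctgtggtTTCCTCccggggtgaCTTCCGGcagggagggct
Bach2 (chr4:32417285-32417434, plus strand, within an intron of longer transcripts): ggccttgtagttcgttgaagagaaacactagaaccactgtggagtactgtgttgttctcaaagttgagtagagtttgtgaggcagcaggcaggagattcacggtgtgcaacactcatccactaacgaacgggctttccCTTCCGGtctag
Ebf1 (chr11:44620078-44620227, plus strand, before an internal start and within an intron of longer transcripts): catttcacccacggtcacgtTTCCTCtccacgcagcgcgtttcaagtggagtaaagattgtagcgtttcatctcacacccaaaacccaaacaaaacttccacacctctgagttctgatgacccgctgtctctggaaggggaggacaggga
Pax5 (chr4:44710695-44710844, minus strand, outside annotated genes): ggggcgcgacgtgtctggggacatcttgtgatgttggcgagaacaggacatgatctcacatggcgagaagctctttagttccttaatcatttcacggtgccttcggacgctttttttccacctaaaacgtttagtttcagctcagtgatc
Pou2af1 (chr9:51213540-51213689, plus strand, outside annotated genes): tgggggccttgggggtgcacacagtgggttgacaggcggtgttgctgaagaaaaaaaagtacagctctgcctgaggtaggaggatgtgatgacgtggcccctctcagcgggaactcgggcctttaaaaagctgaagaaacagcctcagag

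The *Pou2f2* stretch holds a PU.1-type element whose first base lies at -85 from the start and a GABP-type element at -70, and an E-box at -24 lies in the part left off. *Bach2* has a GABP-type element at -12, and the internal *Ebf1* start has a PU.1-type element at -130. *Pou2af1*, the factor that rose, has no match before its start and 1 PU.1-type element 18 bases after it. No match was found in the *Pax5* window or in the window of the other *Ebf1* start, which lies in an annotated exon and is not printed. Of the factors not shown, *Spib* has an E-box at -165 and *Tcf3* a GABP-type element at -248. The octamer and the EBF1 palindrome were in none of the 8 windows, and they are rare in promoters at large, in 1.74% and 0.904% of 32851 windows. The PU.1-type element is in 28.3% of them, the E-box in 51.4% and the GABP-type element in 8.86%. These matches describe letters in a window and say nothing on binding.

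Counts on genes summed to between 43026814 and 46387209 per library. Reads that the counting matched to no gene feature made up 27.2% and 25.5% in MIZ-1WT and 21.6% and 21.1% in MIZ-1△POZ. Their share was thus lower in both MIZ-1△POZ libraries, and its part in the differences below was not tested. *Zbtb17* had 2087 and 1946 counts in MIZ-1WT and 1774 and 1669 in MIZ-1△POZ. On the log2 scale, always given as MIZ-1△POZ over MIZ-1WT, this was -0.32 (SE 0.056, adjusted p = 0.00857, quasi-likelihood test of edgeR adjusted by Benjamini-Hochberg). Its counts cover all exons together, so loss of the POZ exons is not visible in them, and *Spen* overlaps it on the opposite strand. *Spen* had 2175 and 1951 counts in MIZ-1WT and 1526 and 1703 in MIZ-1△POZ, or 98.4% of the counts of *Zbtb17*. The part of *Spen* in the *Zbtb17* value was not tested. The call of *Zbtb17* was lost without MIZ-1WT replicate 1 (adjusted p = 0.0666, edgeR). *Xist*, the RNA of the inactive X chromosome, had 49 and 60 counts in MIZ-1WT and 38145 and 40838 in MIZ-1△POZ, and all 4 Y-linked genes were lower in MIZ-1△POZ. The Y-linked genes were not absent there, with single values from 245 (*Uty*) to 680 counts (*Ddx3y*). In MIZ-1WT they ran from 4778 (*Uty*) to 15840 counts (*Ddx3y*). Sex and genotype therefore cannot be told apart in any difference below. The 10 pan-B cell genes used to check the label B220+ were abundant in every library, with a summed level between 10086 and 12575 CPM, counts brought to 1 library size with TMM factors.

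Among the 10 factors, *Pou2f2*, *Bach2*, *Ebf1*, *Pax5* and *Spib* fell and *Pou2af1* rose in MIZ-1△POZ, while *Tcf3*, *Spi1*, *Ets1* and *Ikzf3* did not pass the test (edgeR, adjusted p of 0.05 over all tested genes). The call rate over all genes was high: 5822 of 14554 genes passed (40.0%), 2746 lower (18.9%) and 3076 higher (21.1%). Among the 4984 genes at least as abundant as the least abundant factor, 33.7% were lower and 15.8% higher. The factors had a median log2 fold change of -0.24, beside a median of -0.0064 and quartiles of -0.23 and 0.33 over all tested genes and a median of -0.086 over the 4984 abundant genes. In 7 factors both MIZ-1△POZ libraries lay below both MIZ-1WT libraries, as in 37.6% of all genes, and in 1 factor both lay above, as in 37.2%. By the limits of the study, a log2 fold change of 0.6 with an unadjusted p under 0.05, which 20.3% of genes passed, even the largest difference among the factors, that of *Pou2f2* at -0.5992, lay just inside. The data are bulk RNA, in which fewer cells of a type and less RNA per cell cannot be told apart.

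The direction of the smaller differences depended on what was taken as the baseline. When libraries were scaled to the summed counts of the 10 pan-B cell genes in place of all genes, the median of all genes moved to 0.26 and the share of calls that were higher went from 52.8% to 89.5%. Under that scaling 2 factors were lower (*Pou2f2* and *Ebf1*) and 3 higher (*Pou2af1*, *Tcf3* and *Spi1*). Relative to the shifted median, *Pax5* was at -0.46 and *Bach2* at -0.51, close to the original scaling. A change of scaling shifts all genes by nearly the same amount, so this distance could hardly change. It therefore says nothing on which baseline is right. Leaving out MIZ-1WT replicate 1 left 1 factor called lower (*Ebf1*), and leaving out MIZ-1WT replicate 2 left 2 (*Ebf1* and *Pou2f2*). *Ebf1* and *Pou2af1* were called in the same direction in all 12 alternatives.

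**Figure D1:**
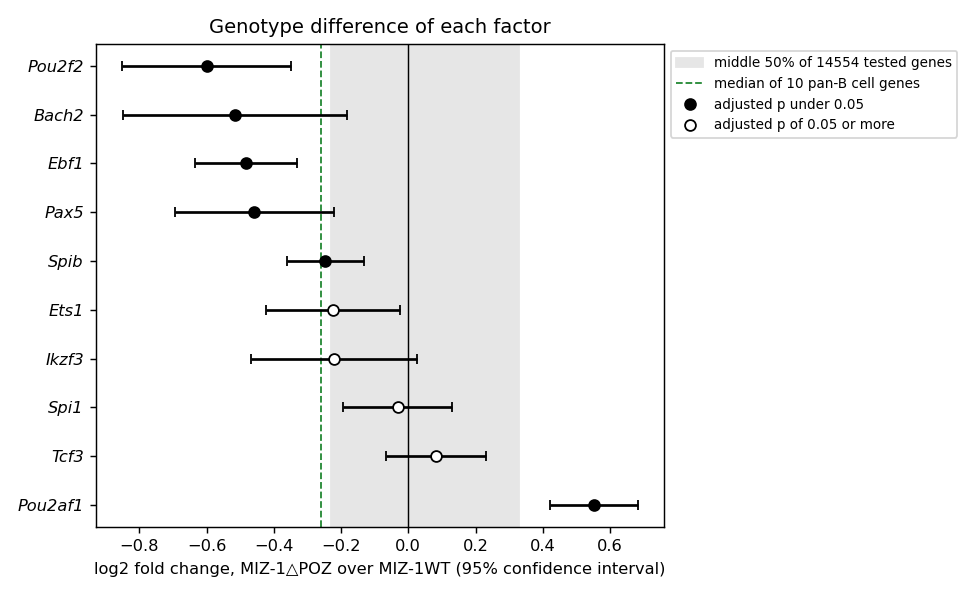
Log2 fold change of each factor (x axis, MIZ-1△POZ over MIZ-1WT), with its 95% confidence interval, from 2 libraries per genotype. Filled points passed the test, the grey band is the middle 50% of all tested genes and the dashed line the median of 10 pan-B cell genes (-0.26). The intervals of *Pou2f2*, *Bach2*, *Ebf1*, *Pax5* and *Spib* lie below 0 and that of *Pou2af1* above it. The estimates of *Spib*, *Ets1*, *Ikzf3* and *Spi1* turn positive when libraries are scaled to pan-B counts.

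Of the 3 factors that set up the B cell program, *Ebf1* and *Pax5* fell by similar amounts and *Tcf3* did not pass the test. *Ebf1* (ENSMUSG00000057098, protein coding, GRCm38 chromosome 11 from 44617317 to 45008091) encodes the pioneer factor that opens B cell enhancers. It stood at 309.9 and 299.99 CPM in MIZ-1WT replicates 1 and 2, and at 207.4 and 229.1 CPM in MIZ-1△POZ replicates 1 and 2. Both MIZ-1△POZ libraries were clearly below both MIZ-1WT libraries, with means of 218 ± 15.3 and 305 ± 6.98 CPM (SD, n = 2). The log2 fold change was -0.48 (SE 0.061, 95% interval -0.63 to -0.33, adjusted p = 0.00336, edgeR), so *Ebf1* fell by 28.4%. It kept its sign and its call under pan-B scaling, at -0.22 (adjusted p = 0.0220, edgeR).

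*Pax5* (ENSMUSG00000014030, protein coding, chromosome 4 from 44524757 to 44710487), the guardian of B cell identity, had 176.7 and 170.9 CPM in MIZ-1WT and 113.9 and 139.1 CPM in MIZ-1△POZ. The MIZ-1WT libraries were close together and the MIZ-1△POZ libraries lay below them, farther apart from one another. Means were 174 ± 4.08 and 126 ± 17.8 CPM (SD, n = 2), a log2 fold change of -0.46 (SE 0.096, 95% interval -0.70 to -0.22, adjusted p = 0.0147, edgeR). *Pax5* thus fell by 27.2%. The call was lost without MIZ-1WT replicate 1 (adjusted p = 0.0880, edgeR), without MIZ-1WT replicate 2 (adjusted p = 0.0639, edgeR) and under pan-B scaling (-0.20, adjusted p = 0.0854, edgeR). The antisense gene *Gm12462* overlaps *Pax5*, and its counts came to 0.0416% of those of *Pax5*.

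*Tcf3* (ENSMUSG00000020167, protein coding, chromosome 10 from 80409514 to 80433647), whose products E12 and E47 bind E-boxes, had 142.2 and 140.2 CPM in MIZ-1WT and 142.0 and 157.2 CPM in MIZ-1△POZ. The first MIZ-1△POZ library fell between the MIZ-1WT libraries, so the groups overlapped. The log2 fold change was 0.083 (SE 0.061, 95% interval -0.067 to 0.23, adjusted p = 0.320, edgeR), an interval that leaves room for a small rise and a smaller fall. *Tcf3* was called higher without MIZ-1△POZ replicate 1 (0.16, adjusted p = 0.0383, edgeR), after removal of an exon length and GC trend (0.16, adjusted p = 0.0451, edgeR) and under pan-B scaling (0.34, adjusted p = 0.00375, edgeR).

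**Figure D2:**
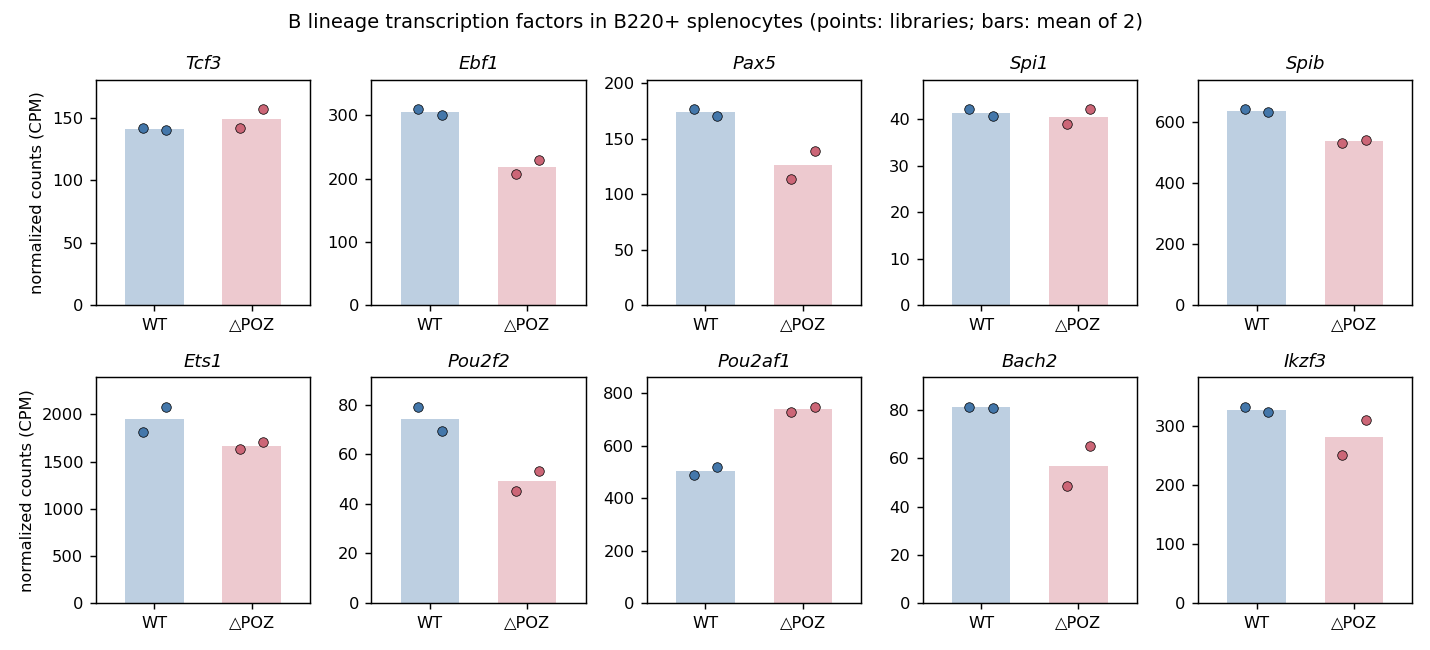
Normalized counts (CPM, y axis from 0) of each factor in every library. Points are single libraries, bars the mean of 2, blue MIZ-1WT and red MIZ-1△POZ. The points of *Tcf3* and *Spi1* overlap between genotypes, those of *Pou2af1* are higher in MIZ-1△POZ, and those of the other 7 factors are lower.

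Among the ETS factors, *Spib* fell by a small amount and *Spi1* and *Ets1* did not pass the test. *Spib* (ENSMUSG00000008193, protein coding, chromosome 7 from 44525993 to 44532071) encodes the lymphoid relative of PU.1, which shares many sites with it in B cells. It had 640.9 and 630.9 CPM in MIZ-1WT and 529.9 and 541.6 CPM in MIZ-1△POZ, and the libraries of each genotype lay close together with a clear gap between the genotypes. Means were 636 ± 7.08 and 536 ± 8.27 CPM (SD, n = 2), and the log2 fold change was -0.25 (SE 0.046, 95% interval -0.36 to -0.13, adjusted p = 0.0107, edgeR), which moved to 0.015 (adjusted p = 0.852, edgeR) under pan-B scaling. *Spib* fell by 15.7% on the original scale, about as much as the pan-B cell genes, whose median log2 fold change was -0.26. Leaving out MIZ-1WT replicate 1 or replicate 2 raised its adjusted p to 0.0830 or 0.0621 (edgeR).

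*Spi1* (ENSMUSG00000002111, protein coding, chromosome 2 from 91082390 to 91115756) encodes PU.1, which is needed in B cells at a low level and is far more abundant in macrophages. Its values were 42.2 and 40.8 CPM in MIZ-1WT and 38.9 and 42.2 CPM in MIZ-1△POZ. The genotypes overlapped, with a log2 fold change of -0.032 (SE 0.066, 95% interval -0.19 to 0.13, adjusted p = 0.729, edgeR). Its sign was not stable, at 0.044 over genes with a mean of at least 30 RPM (reads scaled to library size without TMM factors), 0.035 without MIZ-1△POZ replicate 1 and 0.23 (adjusted p = 0.0405, edgeR) under pan-B scaling. In the same libraries 16 of 16 macrophage markers rose with a median log2 fold change of 1.98. *Spi1* was called higher only when libraries were scaled to pan-B counts. The part of macrophages in its value was not tested.

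*Ets1* (ENSMUSG00000032035, protein coding, chromosome 9 from 32636221 to 32757820) encodes a factor known to hold back differentiation of B cells to plasma cells. It was the most counted of the 10, with 1817 and 2080 CPM in MIZ-1WT and 1634 and 1702 CPM in MIZ-1△POZ. Both MIZ-1△POZ libraries lay below both MIZ-1WT libraries, but the MIZ-1WT libraries differed from one another by more than the lower of them exceeded the higher MIZ-1△POZ library. The log2 fold change of -0.22 (SE 0.080, 95% interval -0.42 to -0.026) missed the threshold (adjusted p = 0.0723, edgeR). The Wald test of DESeq2 gave *Ets1* an adjusted p of 0.0193 and edgeR without the filter on low counts gave 0.0244, while pan-B scaling put it at 0.039.

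The octamer pair moved apart. *Pou2f2* (ENSMUSG00000008496, protein coding, chromosome 7 from 25087344 to 25179726), the gene of OCT2, had 79.2 and 69.7 CPM in MIZ-1WT and 45.1 and 53.2 CPM in MIZ-1△POZ. Both MIZ-1△POZ libraries lay below both MIZ-1WT libraries, with means of 49.2 ± 5.75 and 74.4 ± 6.76 CPM (SD, n = 2). With a log2 fold change of -0.60 (SE 0.10, 95% interval -0.85 to -0.35, adjusted p = 0.00798, edgeR) *Pou2f2* fell by 34.0%, the largest difference among the 10 factors by this estimate. Its call was lost in 1 alternative, without MIZ-1WT replicate 1 (-0.50, adjusted p = 0.0546, edgeR), and the sign held in all 12.

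*Pou2af1* (ENSMUSG00000032053, protein coding, chromosome 9 from 51213708 to 51240080), the gene of OCA-B, which clamps OCT1 and OCT2 to the octamer and is needed for germinal centers, had 489.0 and 517.9 CPM in MIZ-1WT and 728.6 and 748.6 CPM in MIZ-1△POZ. The genotypes were well apart, and the libraries within each differed little, with means of 503 ± 20.4 and 739 ± 14.2 CPM (SD, n = 2). Its log2 fold change was 0.55 (SE 0.053, 95% interval 0.42 to 0.68, adjusted p = 0.00176, edgeR), a rise of 46.7%. It ranged from 0.51 to 0.82 over the 12 alternatives. In TPM, counts divided by exon length and scaled to a common sum per library, the ratio of *Pou2af1* to *Pou2f2* was 19.96 and 24.04 in MIZ-1WT and 52.3 and 45.5 in MIZ-1△POZ. The lower of the MIZ-1△POZ ratios was well above the higher of the MIZ-1WT ratios.

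*Bach2* (ENSMUSG00000040270, protein coding, chromosome 4 from 32238804 to 32586108) fell, and *Ikzf3* did not pass the test. *Bach2* had 81.4 and 80.9 CPM in MIZ-1WT and 48.4 and 65.2 CPM in MIZ-1△POZ. The MIZ-1WT libraries were nearly equal, and the MIZ-1△POZ libraries were both lower but far from one another, with means of 81.2 ± 0.360 and 56.8 ± 11.9 CPM (SD, n = 2). The log2 fold change was -0.52 (SE 0.14, 95% interval -0.85 to -0.18, adjusted p = 0.0295, edgeR), so that *Bach2* fell by 30.04%. The value depended on the MIZ-1△POZ library used, at -0.73 without replicate 2 and -0.31 without replicate 1. The call was lost without MIZ-1WT replicate 1 or 2 (adjusted p = 0.120 and 0.108, edgeR), over genes with a mean of at least 30 RPM (adjusted p = 0.0582, edgeR) and under pan-B scaling (-0.26, adjusted p = 0.0992, edgeR). The antisense gene *Bach2os* held 9 and 10 counts in MIZ-1WT and 30 and 17 in MIZ-1△POZ, or 0.545% of the counts of *Bach2*.

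*Ikzf3* (ENSMUSG00000018168, protein coding, chromosome 11 from 98464902 to 98546031) had 332.3 and 322.9 CPM in MIZ-1WT and 251.5 and 310.6 CPM in MIZ-1△POZ. The second MIZ-1△POZ library was only just below the MIZ-1WT libraries and the first was far below. Its log2 fold change was -0.22 (SE 0.0998, 95% interval -0.47 to 0.026, adjusted p = 0.130, edgeR). Without MIZ-1△POZ replicate 2 it was -0.36 (adjusted p = 0.00216, edgeR) and without MIZ-1△POZ replicate 1 it was -0.067, while pan-B scaling put it at 0.038.

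**Figure D3:**
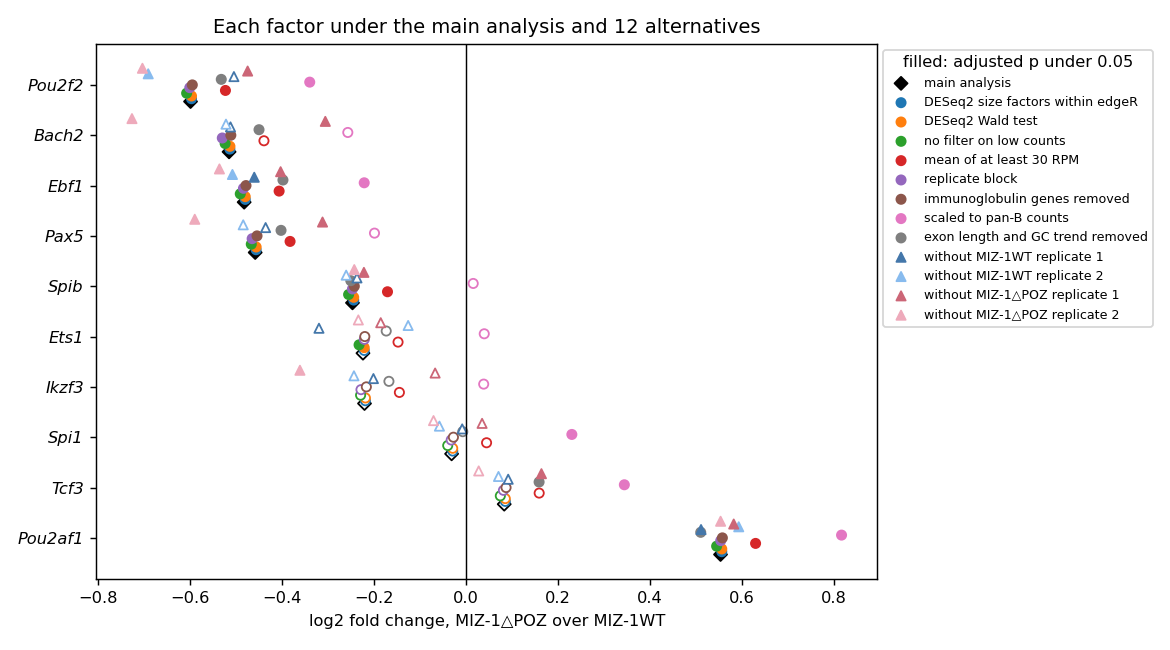
Log2 fold change of each factor (x axis, MIZ-1△POZ over MIZ-1WT) in the main analysis (black diamond) and 12 alternatives, with filled symbols for an adjusted p under 0.05. *Ebf1* and *Pou2af1* are filled throughout. Scaling to pan-B counts (pink) moves each factor to the right, and carries *Spib*, *Ets1*, *Ikzf3* and *Spi1* above 0.

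In CPM, MIZ-1△POZ replicate 1 had less of every factor than replicate 2, with a median log2 gap of -0.15 and the widest gaps in *Bach2* (-0.43), *Ikzf3* (-0.30) and *Pax5* (-0.29). Over all tested genes 50.5% were lower in replicate 1, with a median gap of -0.0018. All 10 pan-B cell genes were lower in that library too, with a median gap of -0.082, and 1 of 16 macrophage markers was lower, with a median gap of 0.67 in the other direction. In MIZ-1WT, 8 of 10 factors were higher in replicate 1 than in replicate 2, with a median gap of 0.032. In TPM, which is scaled to exon length, *Pou2af1*, *Spib* and *Ets1* were higher in MIZ-1△POZ replicate 1 than in replicate 2. Whether other cells in the sample took part in these gaps was not tested.

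Levels of different factors were compared per exon length, as TPM. *Pou2af1* (494 to 808 TPM over the 4 libraries), *Ets1* (539 to 626 TPM) and *Spib* (507 to 575 TPM) formed the top, and each overlapped the next in range. *Tcf3* (88.5 to 104 TPM), *Ikzf3* (81.2 to 97.7 TPM) and *Ebf1* (60.1 to 81.8 TPM) came next, also overlapping one another in turn, and well below *Spib*. *Pax5* (36.4 to 51.4 TPM) and *Spi1* (38.6 to 42.0 TPM) overlapped below *Ebf1*. The lowest were *Pou2f2* (15.5 to 24.7 TPM) and *Bach2* (13.8 to 21.1 TPM), which also overlapped, and even *Bach2* lay at percentile 56.3 of the tested genes.

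The order was not the same in both genotypes. In MIZ-1WT it began with *Ets1* and *Spib*, whose ranges overlapped, before *Pou2af1*, and in MIZ-1△POZ *Pou2af1* stood alone at the top, above *Ets1* and *Spib*. *Ikzf3* was above *Tcf3* in MIZ-1WT and below it in MIZ-1△POZ. *Pax5* was above *Spi1* in MIZ-1WT, and the pair overlapped in MIZ-1△POZ. On the TPM scale the *Tcf3* values of 90.7 and 88.5 in MIZ-1WT and 99.4 and 104 in MIZ-1△POZ did not overlap, unlike its CPM. The same held for *Spi1*, at 40.3 and 38.6 TPM in MIZ-1WT and 40.8 and 42.0 in MIZ-1△POZ. *Ikzf3* overlapped in TPM (97.7 and 94.0 against 81.2 and 95.2) but not in CPM. Summed over the 10 factors, CPM was lower in MIZ-1△POZ (4111 and 4354 against 3739 and 3989). Summed TPM was higher there (2029 and 2095 against 2223 and 2215). TPM uses no TMM factors, and it is scaled to the sum of length-corrected counts in each library. Which of these made the 2 scales differ was not tested. With coding length in place of exon length *Ets1* ranked 1 and *Pou2af1* 2, and *Tcf3* went from rank 4 to 7.

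**Figure D4:**
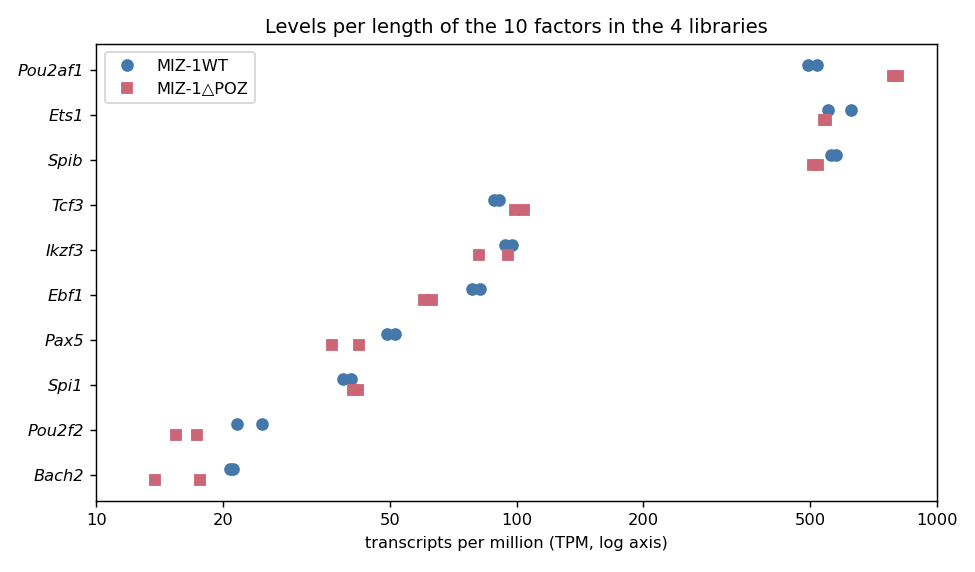
Level of each factor per exon length in every library, as TPM on a log axis, with blue circles for MIZ-1WT and red squares for MIZ-1△POZ. The 3 factors at the top lie between 494 and 808 TPM, and *Pou2f2* and *Bach2* lie at or below 24.7 TPM.

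Ratios between pairs of factors were read within each library. *Ebf1* to *Pax5* was 1.59 and 1.59 in MIZ-1WT and 1.65 and 1.49 in MIZ-1△POZ, so the genotypes overlapped. *Spib* to *Spi1* was 14.3 and 14.5 in MIZ-1WT and 12.8 and 12.1 in MIZ-1△POZ, a lower ratio in both MIZ-1△POZ libraries. *Bach2* to *Spi1* was 0.524 and 0.538 in MIZ-1WT and 0.337 and 0.419 in MIZ-1△POZ, with the same order. These are ratios of TPM, given as a description with no test.

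Genes that share a family, a partner or an inhibitor with the factors moved both ways. Of 29 such genes 25 were tested, and fewer reach a mean of at least 30 RPM. Over all tested genes 18.9% were lower and 21.1% higher, and over the 4984 abundant genes 33.7% and 15.8%. In this list 11 fell, 3 rose and 11 did not pass, with a median log2 fold change of -0.14. The count that fell was 4 without MIZ-1WT replicate 1, 5 without MIZ-1WT replicate 2, 7 without MIZ-1△POZ replicate 2 or with a replicate block, 7 with the length and GC trend removed and 4 at a mean of at least 30 RPM, and under pan-B scaling 4 fell and 8 rose. The inhibitors of E proteins went in opposite directions. *Id3* fell from 101 and 110 CPM to 54.4 and 58.1 (-0.91, adjusted p = 0.000961, edgeR), and *Id2* rose from 12.4 and 13.6 CPM to 35.005 and 29.8 (1.32, adjusted p = 0.00120, edgeR). *Tcf12*, the gene of the E protein HEB, fell (-0.36, adjusted p = 0.00430, edgeR), as did *Fli1*, the ETS gene next to *Ets1* (-0.44, adjusted p = 0.00271, edgeR). *Etv6*, an ETS repressor, rose (0.41, adjusted p = 0.00675, edgeR), a call lost without MIZ-1WT replicate 1 (adjusted p = 0.0614, edgeR). The rise of *Spic*, the PU.1 relative of red pulp macrophages, was from 33.9 and 44.2 CPM to 165 and 103 (1.78, adjusted p = 0.00403, edgeR), and *Spic* is also in the list of macrophage markers. Singled out after their values were seen, the PU.1 partner *Irf4* was at -0.091 (adjusted p = 0.225, edgeR), the E protein gene *Tcf4* at 0.039 (adjusted p = 0.702, edgeR) and *Ikzf1*, the gene of Ikaros, at 0.054 (adjusted p = 0.582, edgeR).

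Of 13 other transcription factors of B cells, 9 fell, 1 rose and 3 did not pass, with a median of -0.55. Shares over all tested genes were 18.9% lower and 21.1% higher, and over the 4984 abundant genes 33.7% and 15.8%. *Bcl6*, the repressor that runs the germinal center, fell from 114 and 105 CPM to 42.7 and 43.0 (-1.36, adjusted p = 0.000682, edgeR), while 5 of 5 germinal center markers rose. *Bcl11a* fell from 318 and 285 CPM to 153 and 175 (-0.88, adjusted p = 0.00178, edgeR) and *Mef2c*, which acts downstream of the B cell receptor, was at -0.46 (adjusted p = 0.00264, edgeR). *Zeb2* rose slightly (0.23, adjusted p = 0.0369, edgeR), a call lost without MIZ-1WT replicate 1 (adjusted p = 0.195, edgeR), MIZ-1WT replicate 2 (adjusted p = 0.129, edgeR) or MIZ-1△POZ replicate 1 (adjusted p = 0.0545, edgeR). Among 16 factors of plasma cells and other lineages, 13 were tested, and 9 rose and 4 did not pass, with a median of 1.40, and 2 rose among those with a mean of at least 30 RPM. *Prdm1*, the target of BACH2 repression, rose from 6.24 and 6.83 CPM to 17.4 and 17.0 (1.40, adjusted p = 0.000887, edgeR). The myeloid factor *Cebpb* (1.62, adjusted p = 0.00175, edgeR) rose as well.

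Known targets of the factors were read as 2 lists. Of 12 genes they activate, 8 fell, 2 rose and 2 did not pass, with a median of -0.23, and 4 of the 12 are also in a B cell marker list. Beside this, 18.9% of all tested genes were lower and 21.1% higher, and 33.7% and 15.8% of the 4984 abundant genes. *Cd79a*, a classic target of EBF1 and PAX5, fell from 336 and 311 CPM to 103 and 135 (-1.44, adjusted p = 0.00157, edgeR), and it is the gene that carries MB1-Cre. *Btk* (-0.40, adjusted p = 0.00822, edgeR) and *Rel* (-0.60, adjusted p = 0.0125, edgeR) fell less. *Cd36*, a target of OCT2 in B cells that macrophages also express, rose (0.90, adjusted p = 0.00155, edgeR), and so did *Cr2*, which marginal zone B cells carry at a high level (0.25, adjusted p = 0.0282, edgeR). Without MIZ-1WT replicate 1 the count of targets that fell was 1, without MIZ-1WT replicate 2 it was 2 and without MIZ-1△POZ replicate 1 it was 5, and under pan-B scaling 2 fell and 4 rose. Leaving out MIZ-1WT replicate 1 took away the calls of *Btk*, *Rel* and *Cr2* (adjusted p = 0.0550, 0.0661 and 0.141, edgeR), leaving out MIZ-1WT replicate 2 those of *Btk* and *Cr2* (adjusted p = 0.0581 and 0.117, edgeR), and leaving out MIZ-1△POZ replicate 2 that of *Cr2* (adjusted p = 0.0596, edgeR).

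Of 8 genes the factors repress, only some reach a mean of at least 30 RPM, and 4 of those rose in that setting. Among all tested genes 21.1% were higher, and among the 4984 abundant genes 15.8%. Of the 8 genes, 7 rose and 1, *Notch1*, did not pass, with a median of 1.29. Besides *Prdm1* these include *Csf1r*, the receptor of a macrophage growth factor that PAX5 silences (1.97, adjusted p = 0.00161, edgeR), and *Cd28*, another gene PAX5 silences (1.19, adjusted p = 0.00183, edgeR). The 7 genes that rose are all also in a list of plasma cell, macrophage, dendritic cell or T cell markers, and the part of those cells in the result was not tested.

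**Figure D5:**
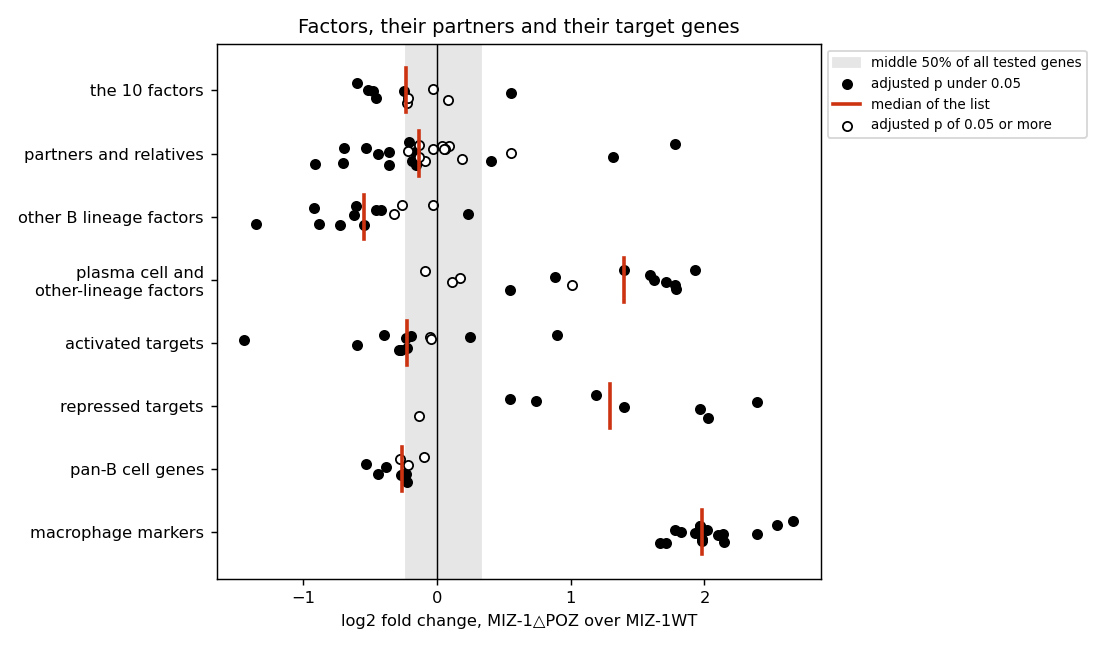
Log2 fold change (x axis, MIZ-1△POZ over MIZ-1WT) of the tested genes of each list, 1 point per gene, filled where the adjusted p was under 0.05. Red bars are list medians and the grey band the middle 50% of all tested genes. The factors have a median of -0.24, activated targets -0.23, repressed targets 1.29 and macrophage markers 1.98. Some genes stand in more than 1 list.

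Markers of some cell types differed between the genotypes, and those of others hardly did. Pan-B cell genes had a median of -0.26 on the log2 scale (7 fell, 3 did not pass), and their summed level was 12228 to 12575 CPM in MIZ-1WT and 10086 to 10591 CPM in MIZ-1△POZ. Summed macrophage markers were at 992 to 1301 CPM in MIZ-1WT and 3781 to 5740 CPM in MIZ-1△POZ, with none at 0 in any library. Plasma cell markers rose in 8 of 9 genes (887 to 1206 CPM against 2565 to 2736 CPM) and germinal center markers in 5 of 5 (31.2 to 41.4 CPM against 169 to 211 CPM). Marginal zone markers rose in 6 of 6 genes with a median of 0.66. Follicular markers fell in 3 of 4 tested genes with a median of -0.63, and transitional markers in 4 of 4 with a median of -0.92. T cell markers were at 72.4 to 87.6 CPM and 92.3 to 101 CPM, with 2 of 12 called higher. Called markers were 0 of 5 for NK cells and 0 of 8 for erythroid cells. For plasmacytoid dendritic cells 1 of 6 was called higher, and for conventional dendritic cells 3 of 6 higher and 1 lower. What these shifts contributed to the values of the 10 factors was not tested.

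Genes beside the factors on the chromosome were read for comparison. Of the 20 nearest tested protein-coding genes, 1 on each side of each factor, 8 fell, 1 rose and 11 did not pass, with a median log2 fold change of -0.14. Around the 5 factors that fell, 4 of 10 neighbours fell and 1 rose. Over all tested genes 18.9% were lower and 21.1% higher, and over the 4984 abundant genes 33.7% and 15.8%. Both neighbours of *Pou2af1* fell, against its own rise.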

How the data were processed

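RNA was taken from B220+ splenocytes of 2 MIZ-1WT and 2 MIZ-1△POZ samples, grouped by the labels. Stranded libraries were made after ribosomal RNA depletion and read from both ends. The authors trimmed reads with Trimmomatic, mapped them to GRCm38 (mm10) with TopHat2 (version 2.1.0 in the submitters' processing notes, while the methods name another version) and deposited raw counts per Ensembl gene from HTSeq. The strand setting and the Ensembl release are not given in the sources used here. HTSeq's summary lines were left out. Reads matched to no gene feature made up 25.5% to 27.2% of the table in MIZ-1WT and 21.1% to 21.6% in MIZ-1△POZ. Ambiguous reads made up 0.281% to 0.302% and reads without a unique alignment 42.8% to 44.1%.

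Of 41214 genes, 40340 had a GENCODE symbol. Those with 10 or more counts in at least 2 libraries, 14554 genes, were tested in edgeR 4.0.16 in R 4.3.3 (TMM factors from 0.977 to 1.03, quasi-likelihood test, Benjamini-Hochberg adjustment over all tested genes, threshold 0.05). CPM uses TMM library sizes, and RPM is the same without the TMM factor. TPM was computed here from counts and exon length. DESeq2 1.42.0 was an alternative, and the others are given below. On simulated counts over 14360 genes edgeR recovered 100% of genes changed by 1 on the log2 scale and 49% of those changed by 0.5, with 5 false calls among 154. Only a few well-counted genes were changed there, equally up and down, and all genes had a common dispersion. In the real data 40.0% of genes were called, so these rates do not measure its errors.

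The factors and lists were chosen with earlier results of these data known. Named are all 10 factors and, of each of 5 lists, the 3 called lower and the 3 called higher with the smallest p; 1 gene that meets this rule is not reported here. *Ighd* was not matched. RefSeq promoter windows are from GRCm38.p6.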

Additional observations from a re-analysis of the deposited data

How the results depend on the processing

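Alternatives to the edgeR test were size factors of DESeq2, the Wald test of DESeq2, no filter on low counts (21025 genes), a mean of at least 30 RPM (6052 genes), a replicate block, removal of 199 immunoglobulin genes, scaling to pan-B counts, removal of an exon length and GC trend (14430 genes) and leaving out each library. A group left with 1 library was assumed to vary like the other group. For the 10 factors, 98 values kept their direction and their side of the threshold, 10 lost the call, 6 gained one and 6 changed sign. Over all genes, 1282 fell and 1464 rose at 30 RPM, where fewer genes were tested, and 728 fell and 6181 rose under pan-B scaling. With a library left out, where fewer samples entered, 848 to 2626 fell and 1374 to 2955 rose. DESeq2 called 2401 lower and 2665 higher. Under pan-B scaling 2 factors were lower and 3 higher, and with the length and GC trend removed 2 were higher. With a library left out, 1 to 6 factors were lower and 1 to 2 higher. Pan-B scaling reversed *Spib* (0.015), *Spi1* (0.23), *Ets1* (0.039) and *Ikzf3* (0.038), and *Spi1* also reversed at 30 RPM (0.044) and ranged from -0.071 to 0.035 with a library left out. Where no reason is given, the cause was not tested.

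The labels do not say whether libraries with the same replicate number were paired. Deviations of such libraries correlated at -0.069 over genes, a value that cannot settle how the samples were prepared. With the number as a block, 2099 genes fell and 2633 rose, and 5 factors were lower and 1 higher. The block changed no call among the factors, and *Zeb2* lost its call (adjusted p = 0.0664, edgeR). Coding length moved the TPM rank of 6 factors. Depth is not what limits these values, since every factor had at least 1713 counts in each library. With 2 libraries per genotype, small differences such as those of *Ets1* and *Ikzf3* are the least certain.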
